A study of Mus musculus with 12 samples.

Results

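The genes described here serve the presentation of peptides on MHC class II molecules: H2-Aa, H2-Ab1 and H2-Eb1, which encode classical class II chains, H2-DMa and H2-DMb1, which encode the chains of the peptide exchange factor H2-DM, Cd74, which encodes the invariant chain, and Ciita, the class II transactivator. Their rows were found by gene symbol, and the genes were chosen with earlier results of these data known. All 7 were found among the 37681 genes of the deposited count table, and all 7 held enough reads to be among the 19399 genes tested. The question put to the table was whether, and by how much, the mRNA of these genes differed between kidney cortex with and without a constitutively active HIF1α.

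RNA came from a thin outer slice of kidney cortex of untreated male mice on the C57BL/6 strain, 18 months old. The 3 TG+ mice (43-29, 43-49 and 43-75) were TRACK mice, which carry the γ-HIF1αM3 transgene and express a mutated HIF1α in the proximal tubules. The transgene's name points to the γ-glutamyl transferase (GGT) promoter. The 3 TG- mice (43-26, 43-50 and 43-76) were littermates without it. Both kidneys of every mouse were sequenced, giving 12 libraries, and the 2 libraries of a mouse were summed, so that the mouse is the replicate. As the transgene acts in 1 kind of tubule cell while the slice holds every cell of the cortex, the values below are those of the tissue. Fewer cells of a type and less RNA per cell cannot be told apart in such samples.

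MHC class II molecules are pairs of an alpha and a beta chain that carry peptides from endosomes to the cell surface, where CD4 T cells read them. Dendritic cells, B cells and macrophages make them constantly, and many other cells, kidney tubule cells among them, can make them after interferon gamma. A newly made class II pair is held by the invariant chain, which takes it to the endosome and blocks its groove. Proteases such as cathepsin S then cut the invariant chain down to a short peptide, and H2-DM exchanges that peptide for others. The genes are switched on together by Ciita, which does not bind DNA itself but docks on proteins that sit on shared promoter elements, the X box held by the RFX complex and the Y box held by NF-Y.

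The shared elements can be read in the reference sequence. Promoter windows from RefSeq, GRCm38.p6, were searched on both strands for an X core spelled GNAAC followed, 24 to 36 bases later counted from start to start, by a Y box spelled TGATTGG. The letters and the spacing were chosen with these sequences in view. Of 32851 windows of 300 bases, 250 before and 50 after the transcription start, 117 (0.356%) held the pair, whereas 84.8% held an X core and 7.82% held a Y box, whose letters include an inverted CCAAT box. Entries were found for 8 of 12 class II genes looked up, and 6 of these 8 held the pair. Among the genes described here, H2-Aa, H2-Eb1 and H2-DMb1 held it and H2-DMa did not. H2-Ab1, Cd74 and Ciita had no entry. Stretches from 4 genes are printed from 5′ to 3′ on the strand of the gene, with the X core and the Y box in capitals, because they are the DNA these genes have in common. H2-Aa lies at chr17:34287852-34287919 on the minus strand, and H2-Eb1 at chr17:34305761-34305827, H2-Eb2 at chr17:34325528-34325594 and H2-Ob at chr17:34238803-34238867 on the plus strand. H2-Eb2 encodes a second, little expressed E beta chain, and H2-Ob the beta chain of H2-O, which restrains H2-DM.
H2-Aa: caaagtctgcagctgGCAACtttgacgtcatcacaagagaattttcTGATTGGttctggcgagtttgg
H2-Eb1: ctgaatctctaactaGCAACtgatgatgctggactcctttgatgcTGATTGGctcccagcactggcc
H2-Eb2: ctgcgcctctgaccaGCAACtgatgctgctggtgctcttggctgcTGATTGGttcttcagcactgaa
H2-Ob: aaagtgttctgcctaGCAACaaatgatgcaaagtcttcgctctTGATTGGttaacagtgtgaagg
The X core began 81, 91, 132 and 87 bases before the RefSeq start in H2-Aa, H2-Eb1, H2-Eb2 and H2-Ob, and the Y box 31, 30, 30 and 28 bases after the X core. A match is a description of letters, and binding was not measured.

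The libraries held 21888584 to 33704850 reads in genes, and the mice 48052131 to 60506785 reads. Levels are given as CPM, which are a gene's counts in 1000000 reads of the TMM-scaled library, and differences come from the quasi-likelihood test of edgeR, with p-values adjusted by Benjamini and Hochberg's method over all 19399 genes. At the study's threshold, a fold change above 2 or below 0.5 with an adjusted p below 0.01, 732 genes (3.77%) were higher and 41 genes (0.211%) lower in TG+ mice. At an adjusted p below 0.05 with no minimum fold, 2982 genes (15.4%) were higher and 2105 (10.9%) lower, a split that became 4511 higher and 947 lower with library size alone as the scaling, under which the median log2 fold change of all genes moved from 0.01 to 0.13. The counts of the mouse Hif1a gene, which would include the transgene only where its reads were assigned to that gene, did not separate the groups (log2 fold change -0.12 ± 0.09 SE, adjusted p = 0.343 in edgeR). The labels were therefore not checked by it. The Hif1a value was 0.00 with library size alone, and without TG+ mouse 43-49 it was -0.23 with an adjusted p of 0.0249.

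Of the 7 genes 6, all but H2-DMb1, were higher in TG+ cortex at an adjusted p below 0.05, where 15.4% of all genes were. H2-DMb1 lay higher as well but did not pass. The fold changes were moderate, between 1.32 for H2-DMb1 and 1.90 for H2-Ab1, so that 0 of 7 passed the study's threshold with its 2-fold minimum, which 3.77% of all genes passed. Their median lay at a log2 fold change of 0.70, against 0.01 for all genes tested, and 11% of all genes tested lay at or above that median. For each of the 7 genes every TG+ mouse lay above every TG- mouse, as for 23.4% of all genes tested. In an exact permutation test, which has 20 ways to split the mice 3 and 3, each of them reached the smallest 2-sided p possible in this design, 0.1.

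**Figure D1:**
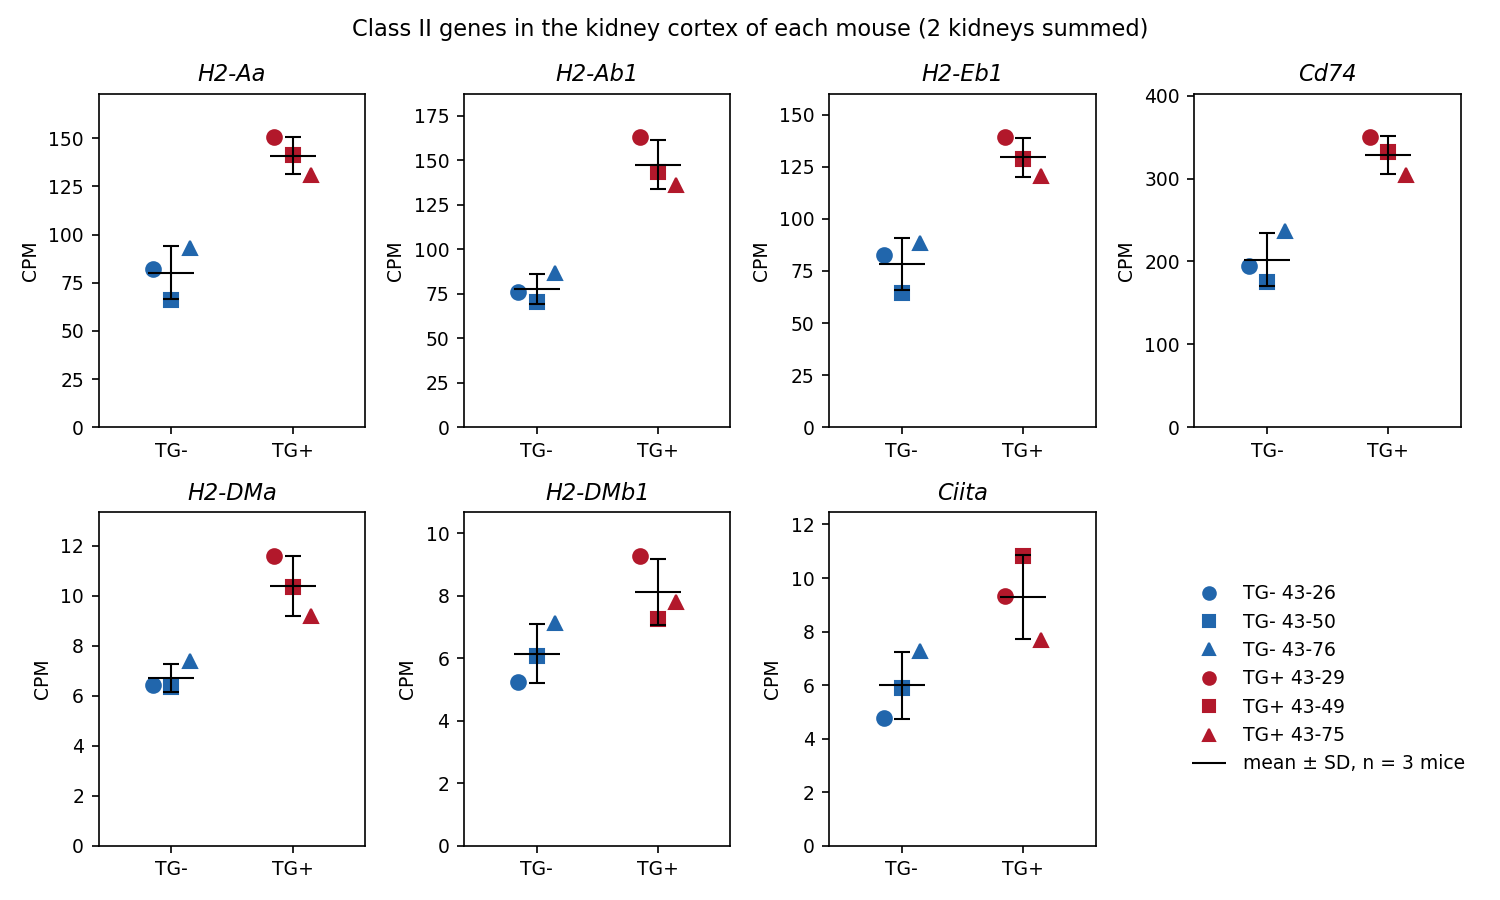
CPM of the 7 class II presentation genes, 1 panel a gene with its own vertical axis from 0, in the 3 TG- mice (blue) and the 3 TG+ mice (red), with the mean and SD of each group in black. In every panel the TG+ points lie above the TG- points, and the gap is narrowest for H2-DMb1 (7.26 against 7.12) and Ciita (7.69 against 7.29).

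H2-Aa (ENSMUSG00000036594, chr17:34282744-34287823 on the minus strand in GRCm38) encodes the alpha chain of the I-A molecule, the chief class II molecule of C57BL/6 mice. It stood at 151, 141 and 131 CPM in TG+ mice 43-29, 43-49 and 43-75 and at 82.0, 65.9 and 92.9 CPM in TG- mice 43-26, 43-50 and 43-76. The lowest TG+ mouse, 43-75, thus lay well above the highest TG- mouse, 43-76. The means were 141 ± 9.77 and 80.2 ± 13.6 CPM (SD, n = 3 each), a log2 fold change of 0.81 ± 0.12 (SE; edgeR adjusted p = 0.00275).

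H2-Ab1 (ENSMUSG00000073421, chr17:34257689-34269419) encodes the I-A beta chain, which pairs with the product of H2-Aa. Its level was 163, 143 and 136 CPM in TG+ mice and 75.7, 70.2 and 86.7 CPM in TG- mice, with the mice listed as for H2-Aa. The order of the mice within each group was the same as for H2-Aa, and the groups did not overlap. This was the largest change of the 7 genes, with means of 148 ± 13.9 and 77.5 ± 8.39 CPM (SD, n = 3 each), a log2 fold change of 0.93 ± 0.10 (SE) and an edgeR adjusted p of 0.000588.

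H2-Eb1 (ENSMUSG00000060586, chr17:34305867-34316674) encodes the beta chain of the I-E molecule. It was measured at 139, 129 and 121 CPM in TG+ mice and at 82.6, 64.5 and 88.2 CPM in TG- mice. Again 43-29 was highest and 43-50 lowest, and the groups did not overlap. The means of 130 ± 9.29 and 78.4 ± 12.4 CPM (SD, n = 3 each) gave a log2 fold change of 0.72 ± 0.12 (SE; edgeR adjusted p = 0.00378). The I-E alpha chain, its partner, was listed as H2-Ea-ps (chr17:34341959-34344645), which held 0 reads in all 12 libraries. The b haplotype of C57BL/6 mice is known to lack a working E alpha gene.

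Cd74 (ENSMUSG00000024610) was the most abundant of the 7 genes. The invariant chain that it encodes also acts as a receptor for the cytokine MIF. It stood at 350, 332 and 305 CPM in TG+ mice and at 195, 175 and 237 CPM in TG- mice. The spread among TG- mice, 31.9 CPM (SD), exceeded the 22.9 CPM among TG+ mice, and the groups did not overlap, with means of 329 and 202 CPM (n = 3 each). Its log2 fold change was 0.70 ± 0.11 (SE; edgeR adjusted p = 0.00382). A microRNA gene, Mir5107, overlaps Cd74 on the same strand and was counted separately at a mean of 5.08 CPM in TG+ and 3.27 CPM in TG- mice, so that few of the reads over the locus were assigned to it.

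The genes of H2-DM were expressed far lower. H2-DMa (ENSMUSG00000037649, chr17:34119541-34139101) stood at 11.6, 10.4 and 9.20 CPM in TG+ mice and at 6.43, 6.36 and 7.37 CPM in TG- mice. The lowest TG+ value, in 43-75, lay above the highest TG- value, in 43-76. The log2 fold change was 0.63 ± 0.11 (SE; edgeR adjusted p = 0.00574). Part of the H2-DMa annotation lies over Brd2 on the other strand, and 8.39% of its 51-base words, the length of the reads, also occur in Brd2. Since use of strand in the counting is not given in the sources used here, reads of both genes may be mixed, and Brd2 itself had a log2 fold change of -0.03 ± 0.08 (SE).

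H2-DMb1 (ENSMUSG00000079547, chr17:34153072-34160230) was the one gene of the 7 that missed the threshold. It was counted at 9.28, 7.26 and 7.79 CPM in TG+ mice and at 5.22, 6.08 and 7.12 CPM in TG- mice. The TG+ mouse 43-49 and the TG- mouse 43-76 nearly met, and when the kidneys were taken singly the groups overlapped. The log2 fold change was 0.40 ± 0.14 (SE) with an edgeR adjusted p of 0.0712, and over the alternatives tried it lay between 0.28 and 0.52 with adjusted p-values from 0.00908 to 0.212. The lowest of these came from the fit with each kidney as its own library. That fit counts the 2 kidneys of a mouse as separate replicates, so its p-values are too favourable. Of its 51-base words, 22.3% also occur in the neighbouring H2-DMb2, so reads of the 2 beta genes may be split between them. H2-DMb2 was far lower, at a mean of 1.46 CPM in TG+ and 0.815 CPM in TG- mice.

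Ciita (ENSMUSG00000022504, chr16:10480059-10528418) is the regulator of the others and was the most variable of them. Its levels were 9.34, 10.8 and 7.69 CPM in TG+ mice and 4.78, 5.90 and 7.29 CPM in TG- mice. Here 43-49, not 43-29, was the highest TG+ mouse, and 43-26 was the lowest TG- mouse. The means of 9.29 ± 1.58 and 5.99 ± 1.26 CPM (SD, n = 3 each) gave a log2 fold change of 0.64 ± 0.18 (SE; edgeR adjusted p = 0.0336). The call did not survive the loss of TG+ mouse 43-29 (adjusted p = 0.0729) or 43-49 (0.0903), or of TG- mouse 43-26 (0.0809) or 43-50 (0.0919), although the fold change stayed above 0 in each of these edgeR fits. Ciita shares 1.42% of its 51-base words with Dexi, an overlapping gene on the other strand.

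**Figure D2:**
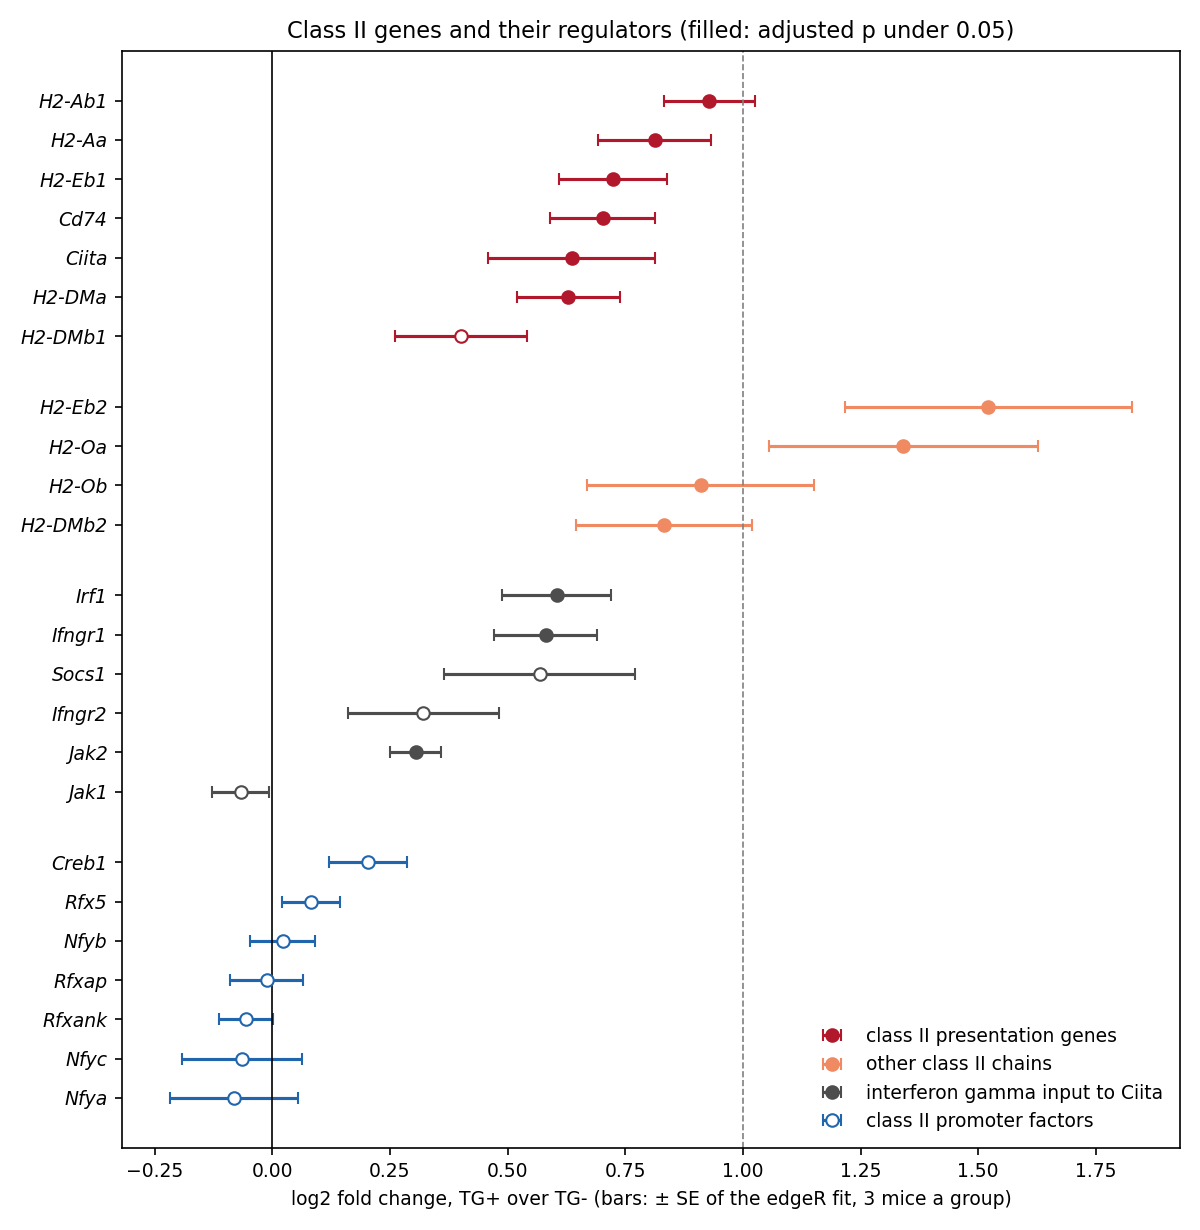
Log2 fold change of TG+ over TG- mice with its SE from the edgeR fit for the class II presentation genes (red), the other class II chains (orange), genes on the path from interferon gamma to Ciita (grey) and the class II promoter factors (blue); filled circles passed an adjusted p of 0.05 and the dashed line marks a 2-fold change. The class II genes lie between 0.40 and 1.52, and the promoter factors between -0.08 and 0.20.

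The remaining class II chains were scarce. H2-Eb2 was counted at 0.647, 0.635 and 0.697 CPM in TG+ mice and at 0.312, 0.245 and 0.123 CPM in TG- mice, the last of these resting on 6 reads. Its log2 fold change of 1.52 ± 0.31 (SE; edgeR adjusted p = 0.00965) passed the study's threshold, but only just. With any 1 mouse left out its adjusted p lay between 0.0121 and 0.0370, above the 0.01 of that threshold, and with a block for pairs of mice it was 0.0153. H2-Oa, which encodes the alpha chain of H2-O, had a log2 fold change of 1.34 ± 0.29 (SE; adjusted p = 0.0121), H2-Ob one of 0.91 ± 0.24 (adjusted p = 0.0282) and H2-DMb2 one of 0.83 ± 0.19 (adjusted p = 0.0150). All 4 chains tested were thus higher at an adjusted p below 0.05, where 15.4% of all genes were. For each the TG+ mice lay above the TG- mice, as for 23.4% of all genes. The H2-Ob call was lost without TG+ mouse 43-49 (adjusted p = 0.0771) or TG- mouse 43-26 (0.0783) or 43-50 (0.0797), the H2-Oa call without TG- mouse 43-76 (0.0511), and the H2-DMb2 call in kidney 2 alone (0.144), where H2-Eb2 was not tested for lack of reads. In H2-DMb2 and in H2-Oa, reads shared with H2-DMb1 and with an antisense transcript were not resolved.

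Levels between genes were compared per length, in the RPKM of the authors, averaged over the kidneys of a mouse. In TG+ mice the means ran from 81.6 RPKM for Cd74 through 69.2 for H2-Eb1, 34.7 for H2-Aa, 31.8 for H2-Ab1, 4.67 for H2-DMa and 3.85 for H2-DMb1 to 0.536 RPKM for Ciita. In TG- mice the order of the means was the same, at 51.5, 43.0, 20.3, 17.1, 3.10, 2.99 and 0.356 RPKM. The ranges of H2-Aa and H2-Ab1 overlapped in both groups, as did those of H2-DMa and H2-DMb1, and those of Cd74 and H2-Eb1 overlapped in TG- mice. Every other neighbour in the order was apart. Within each mouse H2-Eb1 was 1.97 to 2.18 times as high as H2-Aa, and the step from H2-DMb1 to Ciita was 5.49 to 8.90 times. The RPKM of H2-Ea-ps was 0.0202 to 0.0240 although it held no read, because 1 had been added to each count, and this offset is small beside every value above.

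**Figure D3:**
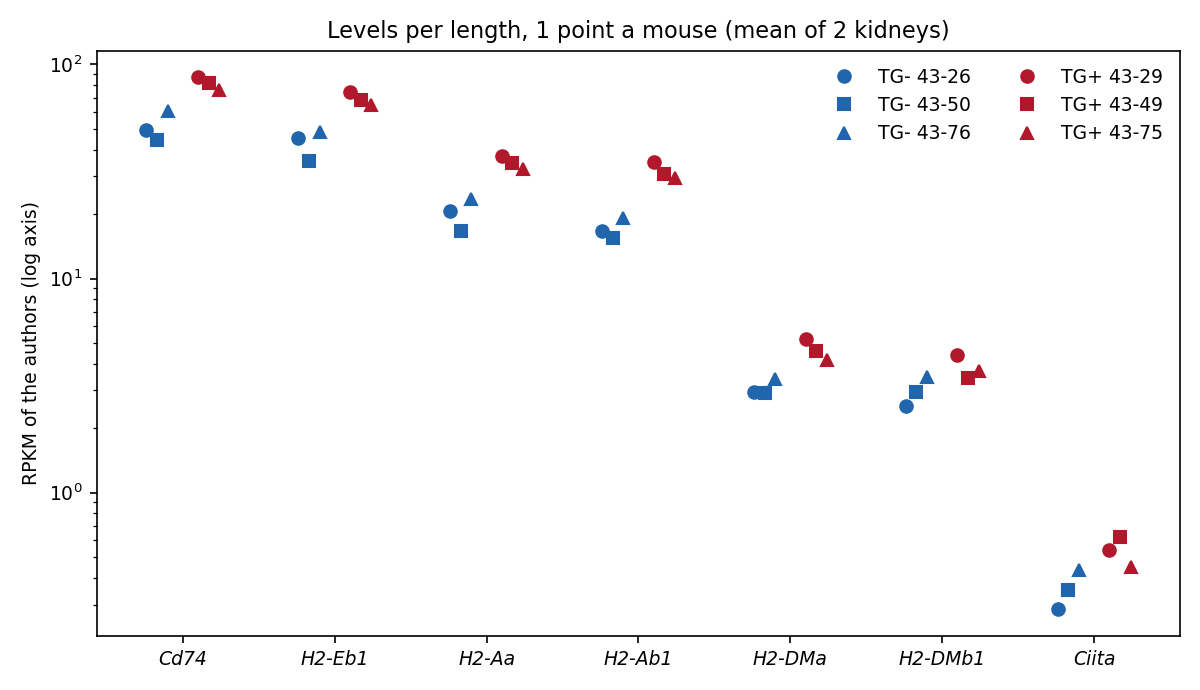
RPKM of the 7 class II presentation genes on a log axis, 1 point a mouse, with TG- mice in blue and TG+ mice in red. Cd74 and H2-Eb1 stand highest, the chains of H2-DM between 2.54 and 5.23 RPKM, and Ciita below 1 RPKM in every mouse.

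Ratios within a mouse do not depend on how libraries are scaled, and 8 were tested with the exact permutation test, 2-sided, whose smallest p of 0.1 becomes 0.2 after adjustment over the 8 tests, so that none could pass 0.05. The ratio of H2-DMa and H2-DMb1 together to H2-Aa and H2-Ab1 together was 0.0666, 0.0619 and 0.0635 in TG+ mice and 0.0739, 0.0914 and 0.0807 in TG- mice. It was lower in each TG+ mouse than in any TG- mouse (log2 difference -0.35). The ratio of Cd74 to H2-Aa and H2-Ab1 together was 1.12, 1.17 and 1.14 in TG+ mice and 1.24, 1.28 and 1.32 in TG- mice, again without overlap (log2 difference -0.17). The same held for H2-Eb1 to H2-Ab1 (log2 difference -0.20), although in kidney 1 alone the mice overlapped. For the chains that pair in 1 molecule the ratios of the 2 groups overlapped. H2-Aa to H2-Ab1 was 0.923 to 0.986 in TG+ and 0.939 to 1.08 in TG- mice, and H2-DMa to H2-DMb1 was 1.18 to 1.43 in TG+ and 1.03 to 1.23 in TG- mice. In kidney 2 alone H2-Aa to H2-Ab1 did not overlap, at 0.913 to 0.959 in TG+ and 0.974 to 1.05 in TG- mice. Ciita to H2-Aa and H2-Ab1 together overlapped too, at 0.0287 to 0.0381 in TG+ and 0.0303 to 0.0434 in TG- mice.

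For the proteins that dock Ciita on the promoter no difference was called. None of 7 promoter factors passed an adjusted p of 0.05, against 15.4% of all genes called higher and 10.9% called lower. Rfx5, Rfxap and Rfxank, the subunits of the RFX complex, had log2 fold changes of 0.08 ± 0.06, -0.01 ± 0.08 and -0.06 ± 0.06 (SE). Nfya, Nfyb and Nfyc, the subunits of NF-Y, had -0.08 ± 0.14, 0.02 ± 0.07 and -0.06 ± 0.13. The signs of Rfxap, Rfxank, Nfya, Nfyb and Nfyc turned under at least 1 alternative. Creb1, which binds within the X region, had 0.20 ± 0.08 (edgeR adjusted p = 0.112). It passed with library size alone (0.0359) and with each kidney as its own library (0.00987), where replicates outnumber mice.

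On the path from interferon gamma to Ciita, 3 of 6 genes tested were higher and none lower at an adjusted p below 0.05. Of all genes 15.4% were higher and 10.9% lower. Ifngr1, the ligand-binding chain of the receptor, stood at 61.6, 46.3 and 56.3 CPM in TG+ mice and at 40.1, 35.2 and 34.6 CPM in TG- mice, without overlap. Its log2 fold change was 0.58 ± 0.11 (SE; edgeR adjusted p = 0.00751). Irf1, an interferon-induced transcription factor that acts at a Ciita promoter, had 0.60 ± 0.12 (adjusted p = 0.00782), and the kinase Jak2 had 0.31 ± 0.05 (adjusted p = 0.00597). Jak1, the other receptor kinase, had -0.07 ± 0.06 (adjusted p = 0.458), Ifngr2 0.32 ± 0.16 (0.179) and the inhibitor Socs1 0.57 ± 0.20 (0.0738). Calls on the last 2 genes depended on the fit. Ifngr2 passed without TG+ mouse 43-49 (0.49, adjusted p = 0.0112) and with each kidney as its own library (adjusted p = 0.0340). Socs1 passed in kidney 1 alone (0.91, adjusted p = 0.0405), with library size alone (adjusted p = 0.0343) and with each kidney as its own library (adjusted p = 0.0231), but had 0.24 in kidney 2 alone (adjusted p = 0.563). The count was 4 of 6 without 43-49, in kidney 1 alone and with library size alone, and 5 of 6 with each kidney as its own library. Library size alone and each kidney as its own library also called more of all genes higher (4511 and 4476 against 2982). The latter counts the kidneys of a mouse as separate replicates. Jak1 turned positive, at 0.05, with library size alone. Ifng itself was near the limit of detection, at 0.0398 to 0.0882 CPM in TG+ and 0.0195 to 0.123 CPM in TG- mice, and was not tested.

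At an adjusted p below 0.05, 15.4% of all genes were higher and 10.9% lower. Of the 8 endosomal processing genes, 2 were lower and 1, Ctss, was higher. It encodes cathepsin S, which trims the invariant chain in antigen-presenting cells, and stood at 29.8, 27.5 and 24.9 CPM in TG+ mice and at 16.5, 11.1 and 18.1 CPM in TG- mice. As with H2-Aa, H2-Ab1 and H2-Eb1, 43-29 was highest and 43-50 lowest, and the log2 fold change was 0.85 ± 0.17 (SE; edgeR adjusted p = 0.00893). Ctsl and Lgmn, which encode cathepsin L and legumain and are abundant in tubule cells, were lower, with log2 fold changes of -0.25 ± 0.06 (adjusted p = 0.0207) and -0.24 ± 0.06 (0.0274). Neither was called with library size alone, where they were at -0.13 (0.0962) and -0.12 (0.129). The Ctsl call was also lost without TG+ mouse 43-29 (0.0574) or TG- mouse 43-50 (0.0597) or 43-76 (0.0714), and that of Lgmn without any single TG- mouse (0.0647 to 0.0841). March8, a ubiquitin ligase that can remove class II and other proteins from the surface, was lower by a log2 fold change of -0.31 ± 0.06 (adjusted p = 0.00729), and March1, its relative in antigen-presenting cells, was not called (0.20 ± 0.11, adjusted p = 0.214).

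Genes of the MHC class I path were tested beside them. Of 12 genes of class I presentation tested, 7 were higher and none lower at an adjusted p below 0.05. Of all genes tested, 15.4% were higher and 10.9% lower. The median log2 fold change over the 12 was 0.30. The count higher was 4 of 12 without TG- mouse 43-50, 5 with DESeq2 size factors and 10 with library size alone. With that last scaling 4511 of all genes were higher, against 2982 in the main fit. H2-K1, a class I heavy chain, had 0.53 ± 0.09 (SE; edgeR adjusted p = 0.00394), H2-D1 had 0.36 ± 0.07 (0.00755) and the shared light chain B2m had 0.39 ± 0.07 (0.00630). Nlrc5, the transactivator of class I genes and a relative of Ciita, had 0.81 ± 0.19 (0.0159), a call that was lost without TG- mouse 43-50 (0.0559), and the immunoproteasome subunit Psmb8 had 0.57 ± 0.08 (0.00191). The calls of Tap2 (0.0439) and Psmb10 (0.0448) were marginal and were lost under most alternatives. The ratio of H2-Aa and H2-Ab1 together to H2-K1 and H2-D1 together was 0.639, 0.662 and 0.637 in TG+ mice and 0.506, 0.422 and 0.516 in TG- mice. It was higher in each TG+ mouse, by a log2 difference of 0.43, with an exact permutation p of 0.1 that became 0.2 after adjustment over the 8 ratios.

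The receptors that accompany peptide presentation to T cells were low, with all 4 genes together at 18.3 to 21.9 CPM in TG+ mice and 10.5 to 15.95 CPM in TG- mice. Cd86, which binds CD28 on T cells, had a log2 fold change of 0.88 ± 0.19 (SE; edgeR adjusted p = 0.0135), Cd40 had 0.71 ± 0.20 (0.0315) and Icosl 0.63 ± 0.17 (0.0320), whereas Cd80 had 0.34 ± 0.21 (0.260). None of these calls held in kidney 1 alone (adjusted p from 0.0615 to 0.103), and with TG+ mouse 43-29, 43-49 or 43-75 left out 1 of the 4 genes was called, with TG- mouse 43-50 or 43-76 left out 0.

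Markers of leukocytes moved with the class II genes. All 4 pan-leukocyte markers were higher at an adjusted p below 0.05, where 15.4% of all genes were. The summed level of the list was 90.0 to 101 CPM in TG+ and 43.8 to 58.9 CPM in TG- mice. Ptprc, which encodes CD45, stood at 29.0, 25.6 and 23.7 CPM in TG+ mice and at 15.4, 10.2 and 15.9 CPM in TG- mice (log2 fold change 0.92 ± 0.16 SE; edgeR adjusted p = 0.00615). As for H2-Aa, H2-Ab1 and H2-Eb1, 43-29 was the highest TG+ mouse, 43-75 the lowest, and 43-50 the lowest TG- mouse. The ratio of H2-Aa and H2-Ab1 together to Ptprc was 10.8, 11.1 and 11.3 in TG+ mice and 10.2, 13.3 and 11.3 in TG- mice. These ranges overlapped fully, with a log2 difference of -0.06 and an exact permutation p of 0.7 (0.7 after adjustment over the 8 ratios).

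Each kind of class II-bearing leukocyte was represented. Counts below are at an adjusted p below 0.05, where 15.4% of all genes were higher. Of 9 dendritic cell markers, 8 were higher, with the list at 52.7 to 60.1 CPM in TG+ and 32.7 to 36.6 CPM in TG- mice. Cd209a and Clec10a, lectins of dendritic cells and related myeloid cells, had the largest log2 fold changes of the list, 1.78 ± 0.16 and 1.98 ± 0.21 (SE; edgeR adjusted p = 0.000320 and 0.000610). Over the 9 markers the median was 1.12 and the lowest, which was not called, was 0.35. Of 8 B cell markers, 7 were tested and 5 were higher, with the list at 7.72 to 14.5 CPM against 3.30 to 4.50 CPM. Cd79a, a chain of the B cell receptor, had the largest change of that list, 2.25 ± 0.27 (adjusted p = 0.00107), against a median of 1.25. Of 10 macrophage markers, 6 were higher, with the list at 213 to 242 CPM against 123 to 173 CPM, among them Csf1r, the receptor for the macrophage growth factor CSF1 (0.63 ± 0.07, adjusted p = 0.000661). T cell markers, whose cells in mice do not make class II, were higher for 3 of 8, with the list at 10.3 to 12.7 CPM against 5.73 to 7.08 CPM. Some of these counts moved with the libraries or the scaling used. Kidney 1 alone gave 3 of 10 macrophage and 2 of 6 B cell markers, and kidney 2 alone 5 of 9 dendritic cell markers. Without TG+ mouse 43-29 or 43-75 or TG- mouse 43-76 the macrophage count was 3 of 10, without TG- mouse 43-50 it was 4 and without TG- mouse 43-26 it was 9. Without TG+ mouse 43-49 or 43-75 or TG- mouse 43-50 or 43-76 the B cell count was 2 or 3. With library size alone 8 of 10 macrophage and 7 of 7 B cell markers were higher, and with each kidney as its own library 9 of 10 macrophage, 6 of 6 B cell and 6 of 8 T cell markers. These 2 fits also called more of all genes higher, 4511 and 4476 against 2982.

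Some markers of kidney cells also differed, where 15.4% of all genes were higher and 10.9% lower at an adjusted p below 0.05. All 6 endothelial markers were higher, with the list at 499 to 537 CPM in TG+ and 293 to 386 CPM in TG- mice, whereas 5 of 9 proximal tubule markers were lower, with the list at 24882 to 28015 CPM against 32814 to 34934 CPM. None of 7 markers of distal and other nephron segments passed (2 were higher with library size alone, with each kidney as its own library or without TG- mouse 43-26, and 1 in kidney 2 alone or by the DESeq2 test), and they lay at 3594 to 4923 CPM against 3902 to 4031 CPM. No marker of these lists was at 0 in either group. The part of these shifts in the class II values was not tested, and a change in the number of leukocytes and a change of class II mRNA per cell cannot be told apart.

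**Figure D4:**
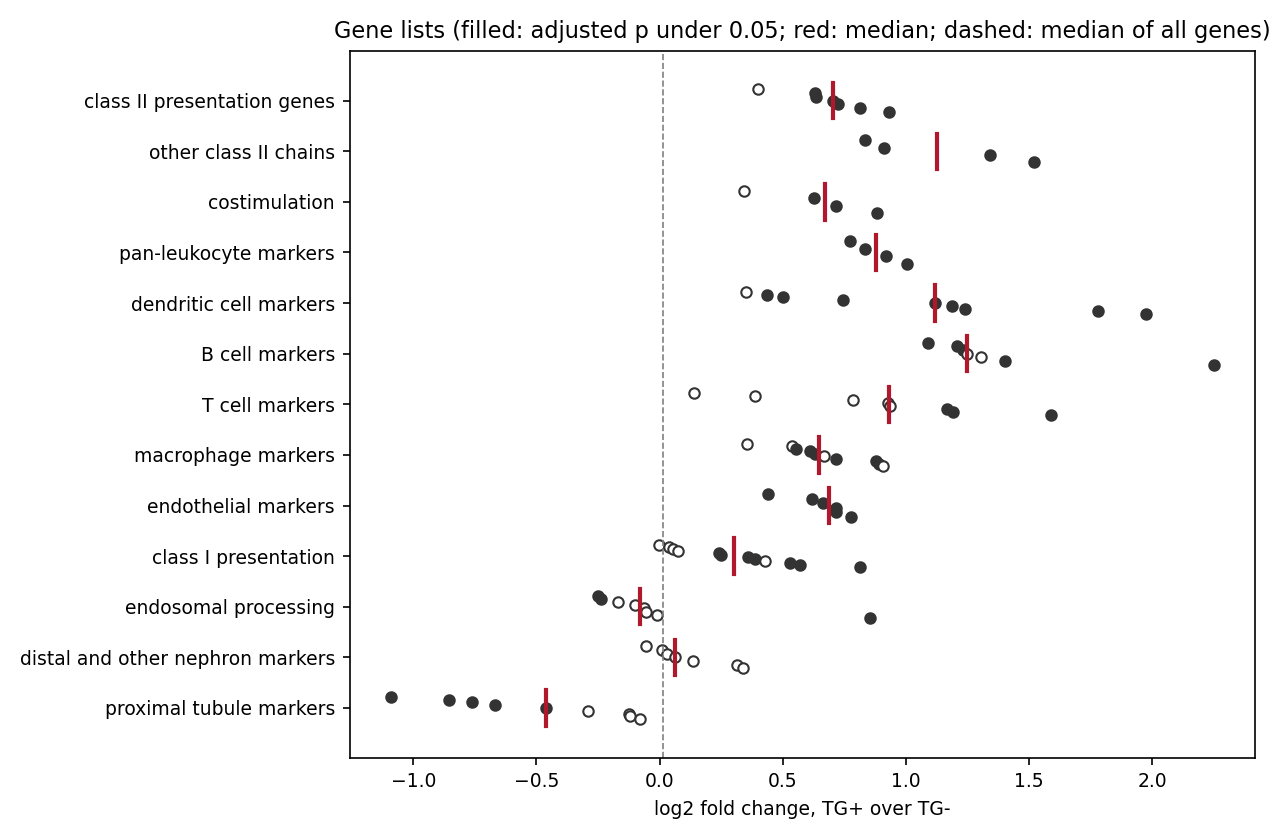
Log2 fold change of TG+ over TG- mice for each tested gene of 13 lists, 1 point a gene, filled where the adjusted p was under 0.05, with the median of each list in red and the median of all 19399 genes as a dashed line. The class II presentation genes, with a median of 0.70, lie nearest to the endothelial (0.69), costimulation (0.67) and macrophage (0.65) lists, and only the proximal tubule list lies wholly below 0.

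The 2 kidneys of a mouse gave a further view of the spread. For H2-Aa, H2-Ab1, H2-Eb1, H2-DMa and Cd74 each of the 6 TG+ libraries lay above each of the 6 TG- libraries, for Cd74 at 288 to 378 CPM against 170 to 243 CPM. The same held for 13.7% of all genes tested. For Ciita and H2-DMb1 5 of 6 TG+ libraries lay above every TG- library. Kidney 1 minus kidney 2 of a mouse differed on the log2 scale by a median absolute value of 0.12 to 0.19 over the mice, depending on the gene, which is under the fold changes between groups. Mouse 43-49 stood apart. All 7 genes were higher in its kidney 1, by 0.29 to 0.43 on the log2 scale, and that kidney also held more of the pan-leukocyte (log2 difference 0.34), macrophage (0.35), T cell (0.65) and B cell (0.97) lists. The dendritic cell list differed by 0.20 there, as in 43-29. In 43-50, where the summed level of the 7 genes differed between kidneys by 0.04, the B cell list differed by 0.62. Across all genes the kidneys of 43-49 differed most too, with a chi-square per gene of 7.30 where the other mice had 1.95 to 4.52.

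**Figure D5:**
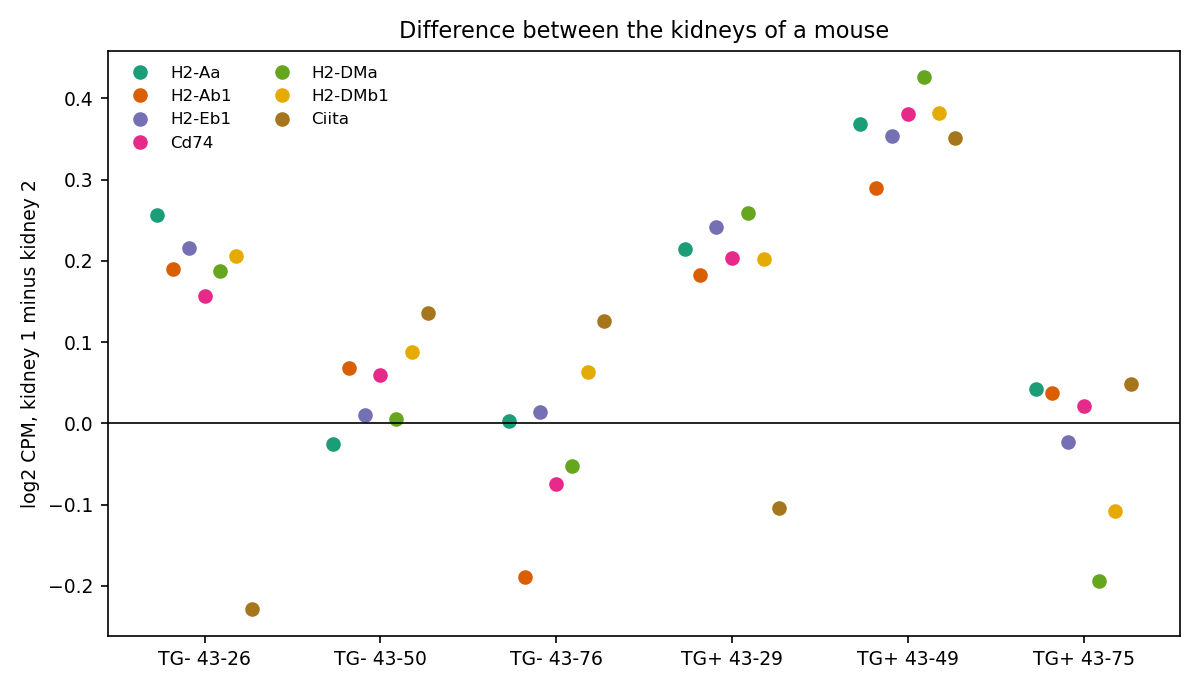
Log2 CPM in kidney 1 minus kidney 2 of each mouse, TG- mice to the left and TG+ mice to the right, 1 colour a gene. In 43-49 all 7 genes lie between 0.29 and 0.43, in 43-26 and 43-29 all but Ciita lie above 0, and in 43-50, 43-75 and 43-76 the genes lie around 0.

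The pattern over the 6 mice was also used to find genes like it. The log2 CPM of each of the 7 genes was centred on its mean over the 6 mice and the 7 profiles were averaged, which gave 0.47, 0.36 and 0.22 for TG+ mice 43-29, 43-49 and 43-75 and -0.42, -0.49 and -0.14 for TG- mice 43-26, 43-50 and 43-76. Likeness was the root mean square difference from this profile, for 16173 other genes with a mean of at least 1 CPM. Among the 7 genes Cd74 lay nearest to their mean (0.04) and H2-DMb1 farthest (0.19), and 556 other genes lay as near as H2-DMb1. The 10 nearest were Ube2l6 (0.03), Art3, Parp14, Slfn2, Pcdhb16, Pcdhb17, Clec9a, 3010003L21Rik, Plcb2 and Galnt15 (0.09). Ube2l6, which encodes an enzyme that attaches the interferon-induced modifier ISG15, had a log2 fold change of 0.68 ± 0.12 (SE), Parp14 one of 0.69 ± 0.09 and Clec9a, a receptor of cross-presenting dendritic cells, one of 0.75 ± 0.19. These genes were picked for the profile, so the values are a description.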

How the data were processed

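Kidney cortex RNA of 3 TG+ and 3 TG- mice was prepared with the Illumina TruSeq RNA kit and sequenced as 51-bp single-end reads. The authors analysed the reads mainly with the Tuxedo tools on mm9, per the submitters' processing notes. The counting program, the annotation release and the use of strand are not given in the sources used here. The authors deposited a table with the raw read count of each Ensembl gene in each library and RPKM values, to whose counts 1 had been added. Its 12 columns of log2 RPKM and its columns of the authors' own comparison (fold changes, group averages, p- and q-values) were not used. Of 37681 genes, 32642 matched a symbol in GENCODE M21 (GRCm38), whose positions are the ones printed.

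Counts of the 2 kidneys were summed per mouse, filtered with filterByExpr, scaled by TMM and tested in edgeR 4.0.16 (limma 3.58.1, R 4.3.3), and the procedure was tested on simulated data. SE is the log2 fold change over the square root of F. Single values and ratios were tested with an exact permutation test written in Python with numpy 2.4.6. Alternatives were DESeq2 1.42.0, other scalings, no filter, single kidneys, a block of mouse pairs and leaving out each mouse. The 7 genes, the lists and the tests were chosen with earlier results of these data known. Named were the 7 genes, the other chains and promoter factors in full, the interferon gamma list but for 1 gene that was removed from it and is not reported here, from other lists genes past a threshold and the most abundant, and the 10 genes of most like pattern. Apart from this, March1 and Cd80, and the choice of examples within a list, were taken after the values were seen. P-values of the main fit measure the spread between 3 mice a group, estimated with information shared over all genes. With a mouse left out they rest on fewer mice. With each kidney as its own library the kidneys of a mouse counted as separate replicates, so those p-values do not measure the spread between mice alone.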

Additional observations from a re-analysis of the deposited data

How the results depend on the processing

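Each of the 7 genes stayed higher in TG+ mice in all 15 refits, and H2-Aa, H2-Ab1, H2-Eb1, H2-DMa and Cd74 stayed at an adjusted p below 0.05 in each of them. Ciita passed in 10 of 15 and H2-DMb1 in 2 of 15. Each count includes the refit with each kidney as its own library, where the kidneys of a mouse count as separate replicates. In kidney 1 alone Ciita had an adjusted p of 0.0643. The number of the 7 genes past the 2-fold threshold was 0, but 1 in kidney 1 alone and 1 with library size alone, and 0 to 1 with a mouse left out. It was 6 with no minimum fold. The number at an adjusted p below 0.05 was 5 to 7, and their median 0.61 to 0.82 on the log2 scale. Over all genes the counts moved more. With no minimum fold 2982 genes were higher and 2105 lower. With library size alone 22 genes were lower at the 2-fold threshold, and 4511 were higher and 947 lower at an adjusted p below 0.05, against 4476 and 3812 with each kidney as its own library. With a mouse left out, 469 to 633 genes were higher and 29 to 50 lower at the 2-fold threshold, and at an adjusted p below 0.05 1985 to 2757 were higher and 1199 to 2023 lower, the fewest without TG- mouse 43-76. The cause was not tested.

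Genes that were not called changed sign under some alternatives. With library size alone the log2 fold change was 0.109 for Rfxap, 0.063 for Rfxank, 0.040 for Nfya, 0.055 for Nfyc, 0.051 for Jak1 and 0.001 for Hif1a. In kidney 1 alone Nfyb was at -0.008 and Nfyc at 0.058, and in kidney 2 alone Rfxap was at 0.035. With a mouse left out, Rfxap lay between -0.046 and 0.040, Nfya between -0.211 and 0.055, Nfyb between -0.025 and 0.048 and Nfyc between -0.127 and 0.043.

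The name of the deposited file lists the mice in pairs (43-49 with 43-50, 43-26 with 43-29, 43-75 with 43-76), but the deviations of paired mice from their group means correlated across genes at 0.32, 0.35 and -0.02, so the pairs were not taken as established. With a replicate block for the pairs, 779 genes were higher and 46 lower at the 2-fold threshold, 6 of the 7 genes were called at an adjusted p below 0.05, and their median was 0.71, while H2-Eb2 missed the 2-fold threshold's adjusted p (0.0153). In that fit 9 of 10 macrophage, 7 of 7 B cell and 2 of 7 distal nephron markers were higher. H2-Ea-ps held no reads and Ifng too few to be tested, so no difference was assessed for either.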
